A study of Mus musculus with 12 samples.

Results

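The transcripts of the mouse mitochondrial genome were the 37 genes whose symbols begin with mt- among the 48576 genes listed in the count tables. They comprise 13 mRNAs, 2 rRNAs and 22 tRNAs, and all 37 symbols matched a gene of the mitochondrial chromosome in GENCODE vM21 on GRCm38. RNA was sequenced from 12 livers of 2 models of liver overgrowth. The YAP model carried Col-TRE-YAPS127A and Rosa26-LSL-rtTA in all 7 mice, and an AAV in which the hepatocyte-directed TBG promoter drives Cre was given at 8 to 10 weeks of age. YAPS127A, an active mutant of the Hippo pathway effector YAP, was induced with doxycycline for 2 weeks (n = 2) or 4 weeks (n = 3), and was not induced in the YAP controls (n = 2). The MYC model carried the liver driver LAP-tTA with TRE-MYC (n = 3). MYC was on from near embryonic day 8, when pregnant mothers stopped receiving doxycycline, until the livers were collected at 4 weeks of age. MYC controls carried LAP-tTA without the MYC transgene on the same doxycycline schedule (n = 2). The labels name hepatocytes as the cell type, but RNA was taken from total liver.

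Mitochondrial DNA is a small circle that is transcribed from both strands into long precursors. The tRNAs lie between most of the other genes, and cutting them out by RNase P and ELAC2 releases the rRNAs and mRNAs. The mRNAs encode core subunits of complexes I, III, IV and V of the respiratory chain, and the rRNAs and tRNAs serve the organelle's own ribosomes. Every protein that transcribes, cuts or stabilises these RNAs is encoded in the nucleus. Hepatocytes are rich in mitochondria, so these transcripts take a large share of liver RNA.

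The libraries held between 12511170 and 17690798 counts. Nothing in the labels ties a library to a litter, cage or day, and p-values measure the spread between these livers. Xist and Y-linked counts gave a male pattern in both YAP controls, in 2-week replicate 1 and in all 5 libraries of the MYC model, and a female pattern in 2-week replicate 2 and all 3 livers at 4 weeks. Sex and 4 weeks of YAP therefore cannot be told apart. Hepatocyte markers were present in every library, and their summed level (7 of 8 listed genes found) was 75277 to 88706 CPM (counts scaled to a common library size) in YAP controls, 70444 to 89019 at 2 weeks, 34468 to 73099 at 4 weeks, 30856 to 52693 in MYC livers and 105284 to 107609 in MYC controls. In bulk liver, fewer cells of a type and less RNA per cell cannot be told apart.

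The sequences below are shown because they decide how well a mitochondrial read can be told from a nuclear one. Genes annotated on the minus strand of chromosome 1 repeat mitochondrial sequence, and the mitochondrial and nuclear stretches are paired here in the sense direction, with capitals at every base that differs within the stretch. The letters were read from GENCODE vM21 transcripts (GRCm38).
mt-Nd3, chrM:9459-9518, plus strand: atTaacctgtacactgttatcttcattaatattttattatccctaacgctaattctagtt
Gm28438, chr1:24613060-24613119, minus strand: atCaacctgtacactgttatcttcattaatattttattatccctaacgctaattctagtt
mt-Co1, chrM:6381-6440, plus strand: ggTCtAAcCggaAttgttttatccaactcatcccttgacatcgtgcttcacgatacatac
Gm29216, chr1:24616138-24616197, minus strand: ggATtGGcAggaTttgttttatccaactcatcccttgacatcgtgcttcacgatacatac

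These stretches hold all the differences found between the mitochondrial genes and 7 gene models that lie head to tail at chr1:24611535-24616197. The models are Gm29216 (copy of the 3′ part of mt-Co1), Gm28661 (mt-Co2), Gm10925 (mt-Atp6), Gm28437 (mt-Co3), Gm28438 (mt-Nd3), Gm10222 (mt-Nd4l) and Gm28439 (5′ part of mt-Nd4). Together they cover mitochondrial positions 6381 to 11042, a span of 4662 bases, of which the 4145 bases inside these models were compared. mt-Atp8 lies in the span but has no model of its own, so it was compared only where it overlaps mt-Atp6. Identity was 99.8%. Counted from 1 at the first base of each mitochondrial gene, the 7 differences were T1056A, C1057T, A1059G, A1060G, C1062A and A1066T in mt-Co1 and T3C in mt-Nd3, with the mitochondrial base first. Of 3551 windows of 100 bases, 3535 held no difference, so a read of that length from either source would carry the same letters.

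Counts were low in the genes that lie inside the span copied on chromosome 1. The 7 mRNA and rRNA genes with no base in it held at least 719111 counts each over the 12 libraries, or 753 counts per base (mt-Rnr1) to 4222 counts per base (mt-Cytb). The 6 mRNAs that lie wholly inside it (mt-Co2, mt-Atp8, mt-Atp6, mt-Co3, mt-Nd3 and mt-Nd4l) held 7775 counts together, or 0.644 counts per base (mt-Nd3) to 5.39 counts per base (mt-Atp8). The 2 genes that cross an edge of the span lay between or near the outside genes. mt-Co1 has 31.8% of its bases inside and held 2140 counts per base over its full length, or 3140 when its counts were set against the 1053 bases outside. mt-Nd4 has 63.6% inside and held 859 counts per base over its full length, or 2358 over the 502 bases outside. How reads that match several places were treated is not given in the sources used here, so the levels of these 8 mRNAs are uncertain, and a low level of the 6 inner ones says nothing about the amount of that mRNA in the liver.

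**Figure D1:**
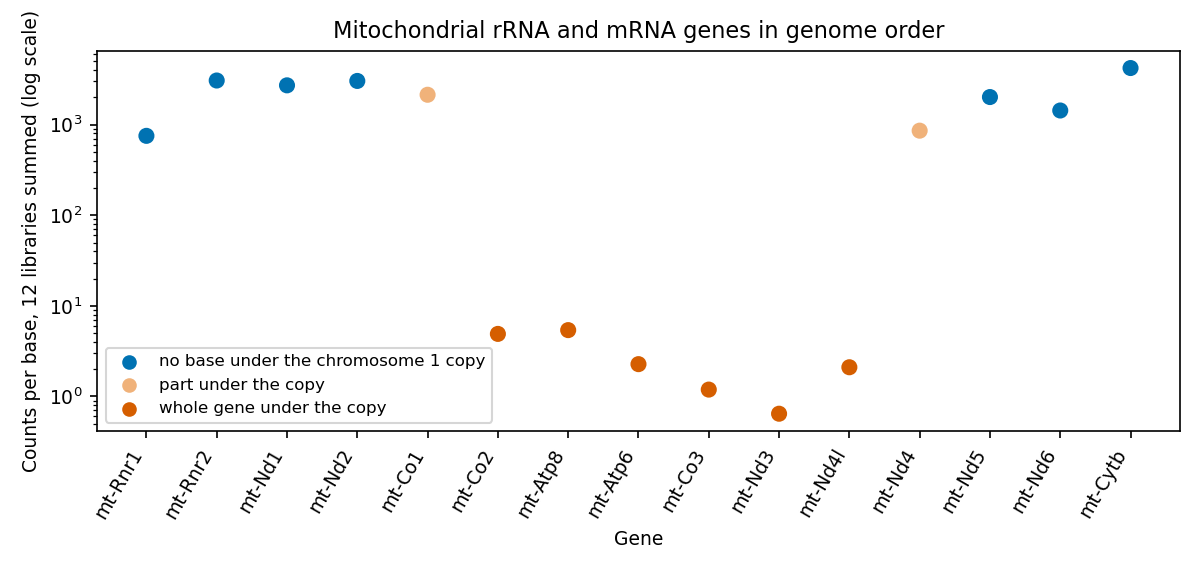
Counts per base, summed over 12 libraries (vertical log axis), of the 2 mitochondrial rRNAs and 13 mRNAs in genome order (horizontal axis); blue points have no base under the chromosome 1 copy, light orange points are partly under it and dark orange points wholly. The 6 dark points lie between 0.644 and 5.39 counts per base and the 7 blue points between 753 and 4222.

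The tRNAs, which carry amino acids to the mitochondrial ribosome, were almost absent from the counts. Of 22 tRNA genes, 59 to 75 bases long, 14 had no count in any of the 12 libraries. A count of 0 was read as up to 3 counts over the 12 libraries, which covers counting error only and is not an absolute bound. The other 8 held 6273 counts in all, and 98.1% of these fell in mt-Tp (proline, 4199), mt-Tc (cysteine, 1292), mt-Tm (methionine, 527) and mt-Tl1 (leucine, 136). mt-Tc and mt-Tl1 were chosen for mention after their values were seen. The 4 genes are printed whole as the only tRNAs above 100 counts, without capitals since no part was singled out.
mt-Tp, chrM:15356-15422, minus strand: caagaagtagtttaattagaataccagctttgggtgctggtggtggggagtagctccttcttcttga
mt-Tc, chrM:5192-5257, minus strand: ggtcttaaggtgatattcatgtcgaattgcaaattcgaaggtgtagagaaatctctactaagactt
mt-Tm, chrM:3845-3913, plus strand: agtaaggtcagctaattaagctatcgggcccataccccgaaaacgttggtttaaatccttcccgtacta
mt-Tl1, chrM:2676-2750, plus strand: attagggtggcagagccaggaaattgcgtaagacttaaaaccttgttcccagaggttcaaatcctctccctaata

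mt-Tp and mt-Tc are encoded on the minus strand, opposite to most of the genome, and mt-Tm and mt-Tl1 on the plus strand, where the annotated ends of mt-Tm and mt-Tl1 touch the starts of mt-Nd2 and mt-Nd1 with 0 bases between. Among the tRNA genes, 5 of the 8 on the minus strand and 3 of the 14 on the plus strand had any count. mt-Tp had between 111 and 732 counts in every library, and replicates of 1 group differed widely: the 3 livers at 4 weeks had 131, 512 and 273. Since the strand setting of the counting is not given, a read from the opposite strand at these places cannot be told apart.

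The mitochondrial share of all counts was lower in every YAP-induced liver than in the YAP controls. It was 19.3% and 19.6% in the 2 YAP controls, 13.9% and 10.2% at 2 weeks, and 11.7%, 10.0% and 7.67% at 4 weeks. The group values were 19.5% ± 0.227 (SD, n = 2), 12.1% ± 2.63 (SD, n = 2) and 9.78% ± 2.00 (SD, n = 3). No induced liver overlapped the controls, and the livers at 2 and 4 weeks overlapped each other. The male liver at 2 weeks, at 13.9%, lay below both controls, which were male as well. In the MYC model the groups overlapped: 20.8%, 15.1% and 15.3% in MYC livers (17.1% ± 3.24, SD, n = 3) and 15.75% and 15.02% in MYC controls (15.4% ± 0.520, SD, n = 2). MYC replicate 1 stood apart from the other 2, whose mean was 15.2%. The share is a value over the members and was given no test.

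By class, the mRNAs took 15.7% ± 0.493 of all counts in YAP controls (SD, n = 2), 9.31% ± 2.45 at 2 weeks (SD, n = 2) and 7.49% ± 1.49 at 4 weeks (SD, n = 3). The rRNAs took 3.78% ± 0.265, 2.74% ± 0.178 and 2.28% ± 0.519 in the same groups. In the MYC model the rRNAs took 4.52%, 3.67% and 4.29% in MYC livers and 3.30% and 3.08% in MYC controls, with no overlap, while the mRNAs overlapped at 16.3%, 11.4% and 10.98% against 12.5% and 11.9%. Scaled to the total count, the log2 changes were 0.18 for mt-Rnr1 and 0.42 for mt-Rnr2, beside a median of 0.43 for all genes. With the TMM scaling described below, both overlapped their controls (-0.23 and 0.02). The tRNAs took at most 0.00757% of any library.

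**Figure D2:**
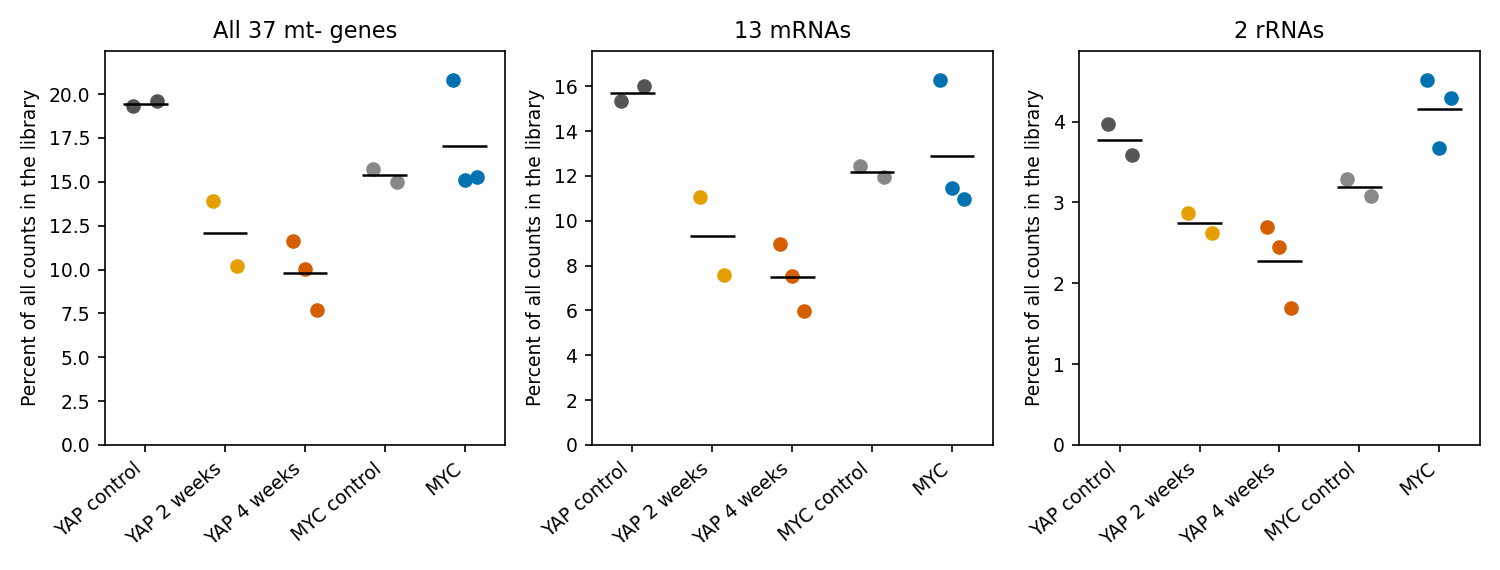
Percent of all counts in a library (vertical axes) held by all 37 mt- genes, the 13 mRNAs and the 2 rRNAs in the 5 groups (horizontal axes); points are libraries and bars are group means. All 5 YAP-induced livers, at 7.67% to 13.9%, lie below the YAP controls at 19.3% and 19.6%, and the MYC livers overlap their controls in the left and middle panels.

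Of the 37 genes, 20 passed the filter on low counts: the 13 mRNAs, the 2 rRNAs and 5 tRNAs (mt-Tp, mt-Tc, mt-Tm, mt-Tl1 and mt-Tn). Levels below are CPM scaled by TMM, the edgeR scaling that holds the typical gene steady between libraries, and changes are log2 fold changes ± SE from edgeR with p adjusted over all 17964 genes tested. The scaling matters here. Scaling to the total count instead moved the median of all genes upward by 0.54 at 2 weeks, 0.73 at 4 weeks and 0.41 in the MYC model on the log2 scale. Both YAP times were compared with the same 2 controls, so their values are not independent of each other.

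After 2 weeks of YAP, 6 of the 20 tested genes fell, namely the small ribosomal RNA, mRNAs of complexes I, IV and V and a tRNA, and 14 were not called. The complex IV mRNA (mt-Co1) lies partly and the complex V mRNA (mt-Atp6) wholly inside the span copied on chromosome 1, so both levels are uncertain. Over all genes tested, 12.7% were called lower and 27.8% in either direction. The median of the 20 was -1.04, beside 0.10 for all genes. With total-count scaling 4 genes were called, all lower, beside 979 of all 17964 genes called lower. The median with that scaling was -0.54 beside 0.64 for all genes. The complex IV and V mRNAs lost their calls under it (mt-Co1 at -0.73, adjusted p = 0.0543, and mt-Atp6 at -0.96, adjusted p = 0.0526). Among the rRNAs, mt-Rnr1, the RNA of the small ribosomal subunit, had levels of 7127 and 7302 in controls and 3787 and 2509 at 2 weeks, and fell by 1.197 ± 0.33 (adjusted p = 0.0210). mt-Rnr2, the RNA of the large subunit, had levels of 46274 and 41108 in controls and 25614 and 19806 at 2 weeks. Its difference of -0.94 ± 0.38 missed the threshold (adjusted p = 0.0861), although the groups did not overlap.

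Complex I, which takes electrons from NADH, has 7 mitochondrial subunits, and 2 of their mRNAs fell at 2 weeks. mt-Nd2 had 45859 and 49833 CPM in controls against 17431 and 7287 and fell by 1.95 ± 0.48 (adjusted p = 0.0117). mt-Nd1 had 25692 and 28544 against 14206 and 8280 and fell by 1.27 ± 0.41 (adjusted p = 0.0389). mt-Nd4 (-1.22, adjusted p = 0.0536), mt-Nd5 (-1.04, adjusted p = 0.0919), mt-Nd6 (-0.70, adjusted p = 0.180), mt-Nd3 (-2.11, adjusted p = 0.0527) and mt-Nd4l (-1.04, adjusted p = 0.165) were not called. mt-Cytb, the only mitochondrial subunit of complex III, had 43628 and 44888 against 29129 and 16024 (-0.97, adjusted p = 0.150). In complex IV, which passes electrons to oxygen, mt-Co1 had 37074 and 33615 against 16863 and 12960 and fell by 1.25 ± 0.40 (adjusted p = 0.0375), while mt-Co2 and mt-Co3, 2 of the uncertain genes, were at -1.06 and -0.79 and not called. In complex V, the ATP synthase, mt-Atp6 fell by 1.45 ± 0.41 (adjusted p = 0.0229) at levels of only 17.97 and 16.97 against 8.86 and 4.01, and mt-Atp8 was at -0.96 (adjusted p = 0.156). Both lie wholly inside the copied span and are uncertain too, as are mt-Nd3 and mt-Nd4l.

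Of the tested tRNAs, mt-Tm alone was called at 2 weeks: 9.47 and 8.70 CPM in controls and 0.638 and 1.73 at 2 weeks. It fell by 2.91 ± 0.67 (adjusted p = 0.00853), with 9 and 29 counts left at 2 weeks. mt-Tp had 21.4 and 19.6 against 26.8 and 23.2 (0.29 ± 0.78, adjusted p = 0.820). Libraries did not overlap, with lower values at 2 weeks, in 17 of the 20 genes, where 30% of all genes tested behaved so, and with higher values in 2 (mt-Tp and mt-Tn), where 36.6% did. The call count was lower when any 1 library of the comparison was left out. Each such fit leaves 1 liver in a group, and the calls over all genes were fewer as well. Markers of other cells moved with the group: skeletal muscle genes (12 of 12 found) summed to 455 to 498 CPM at 2 weeks and to at most 1.16 in controls, where 9 of the 12 had no count. Cholangiocyte genes (8 of 8) summed to 762 to 1461 against 171 to 176 CPM and macrophage genes (10 of 10) to 1446 to 1833 against 282 to 283. Neutrophil, B cell and T and NK cell genes were higher as well without overlap (16.6 to 199.7 against 2.44 to 4.83, 159.5 to 173.8 against 40.2 to 55.9 and 6.02 to 7.17 against 1.59 to 2.22 CPM), and erythroid genes lower (5.31 to 42.5 against 67.8 to 83.4). Their part in the result was not tested.

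After 4 weeks of YAP, 15 of the 20 tested genes were called lower, namely both rRNAs, 12 of the 13 mRNAs and mt-Tm, and 5 were not called (mt-Nd3, mt-Tp, mt-Tc, mt-Tl1 and mt-Tn). Of the mRNAs called, mt-Co2, mt-Atp8, mt-Atp6, mt-Co3 and mt-Nd4l lie wholly inside the span copied on chromosome 1. mt-Co1 and mt-Nd4 lie partly inside it. Over all genes tested, 15.7% were called lower and 33.8% in either direction. The median of the 20 was -1.71, beside 0.18 for all genes. With total-count scaling 14 of the 20 were called, all lower, beside 897 of all 17964 genes called lower. The median with that scaling was -1.00 beside 0.91 for all genes. The gene that lost its call was mt-Nd6 (-0.36, adjusted p = 0.218).

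Among the rRNAs, mt-Rnr1 had levels of 3025, 2301 and 1651 CPM at 4 weeks, all below the 2 controls given above, and fell by 1.63 ± 0.30 (adjusted p = 0.00205). mt-Rnr2 had 21094, 17273 and 10969 and fell by 1.41 ± 0.34 (adjusted p = 0.00919). Replicate 3 was the lowest of the 3 livers for both rRNAs, as it was for the total share.

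In complex I, mt-Nd2 had 8661, 10375 and 6737 CPM at 4 weeks and fell by 2.48 ± 0.42 (adjusted p = 0.00146), the largest fall of an mRNA at that time. mt-Nd1 had 9372, 8012 and 5770 and fell by 1.81 ± 0.37 (adjusted p = 0.00359). mt-Nd4 fell by 1.84 (adjusted p = 0.00417), with 12073 and 13651 CPM in controls and 4693, 3502 and 2556 at 4 weeks. mt-Nd5 had 35895 and 39127 in controls and 16272, 12599 and 9422 at 4 weeks, and fell by 1.56 (adjusted p = 0.00985). mt-Nd6, the only mRNA on the minus strand, had 6185 and 6415 in controls, 4735 and 3037 at 2 weeks and 3299, 3174 and 2428 at 4 weeks. It fell by 1.09 ± 0.33 (adjusted p = 0.0264), the least among the called mRNAs. mt-Nd4l fell by 2.03 (adjusted p = 0.00859) from 7.44 and 7.74 CPM to 1.72, 2.01 and 1.84, and mt-Nd3, at -1.04 (adjusted p = 0.215), overlapped its controls with 1.65, 0.574 and 0.834 against 2.80 and 1.38.

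The other complexes followed the same direction. mt-Cytb had 23567, 13328 and 10309 CPM at 4 weeks and fell by 1.49 ± 0.43 (adjusted p = 0.0199). mt-Co1 had 14368, 9324 and 7161 and fell by 1.78 ± 0.35 (adjusted p = 0.00337). The uncertain genes fell by like amounts at levels of under 33 CPM: mt-Co2 by 1.83, mt-Co3 by 1.86, mt-Atp6 by 2.13 and mt-Atp8 by 1.81 (adjusted p = 0.00338, 0.00710, 0.00157 and 0.00898). mt-Tm had 0.635, 0.631 and 0.222 CPM at 4 weeks and fell by 4.18 ± 0.62 (adjusted p = 0.000662), from 98 and 82 counts to 10, 11 and 4.

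Lower values without overlap were seen in 16 of the 20 genes, where 26.4% of all genes tested behaved so. Without 4-week replicate 2, 1 call was lost, and without 4-week replicate 3, 2 calls were lost. Over all genes, the fits without 4-week replicates 1, 2 and 3 called 6231 of 17848, 5084 of 17726 and 4430 of 17680. Calls were also lost without either YAP control, which leaves 1 control. Beside this result, the summed hepatocyte markers were 34468 to 73099 CPM against 75277 to 88706 in controls, cholangiocyte genes summed to 678 to 3619 against 171 to 176 CPM, macrophage genes to 484 to 1034 against 282 to 283, neutrophil genes (8 of 8 found, 4 of them without counts in controls) to 57.3 to 170.1 against 2.44 to 4.83, B cell genes to 71.7 to 259.97 against 40.2 to 55.9, and skeletal muscle genes to 3.24 to 18.02 against at most 1.16. Erythroid genes were lower, at 23.2 to 51.0 against 67.8 to 83.4 CPM. Their part in the result was not tested.

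**Figure D3:**
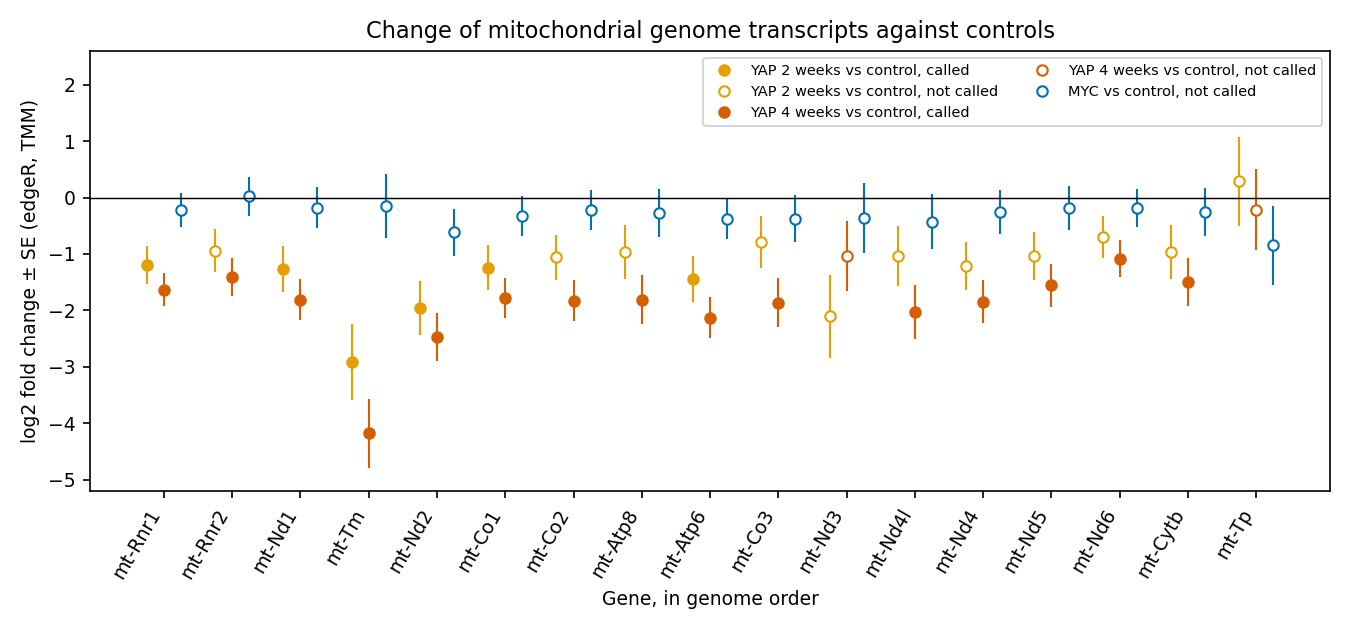
Log2 fold change ± SE (vertical axis, edgeR with TMM scaling) of the 2 rRNAs, 13 mRNAs, mt-Tm and mt-Tp in genome order (horizontal axis) at 2 weeks of YAP, at 4 weeks of YAP and in the MYC model, each against its controls; filled points were called and open points were not. The 4-week points lie between -4.18 (mt-Tm) and -0.22 (mt-Tp), and the MYC points between -0.85 and 0.02, all open; with total-count scaling 13 of the MYC points turn positive and mt-Tp turns positive at 4 weeks.

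Between 2 and 4 weeks of YAP, edgeR called 0 of the 20 genes. DESeq2 called 0 as well, and 1 gene (mt-Co3, -1.08) had an unadjusted p under 0.05. Only 0.0612% of all genes tested were called in this comparison. The median of the 20 was -0.53, beside 0.02 for all genes, and 19 of the 20 values were negative, mt-Nd3 being positive at 1.07. Lower values without overlap were seen in mt-Tm and mt-Nd4l, where 10.1% of all genes behaved so. Without 4-week replicate 1, 2 of the mitochondrial genes were called, beside 501 of all 17848 genes tested in that fit.

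In the MYC model the mitochondrial transcripts did not pass the test in either direction. The edgeR test called 0 of 20, DESeq2 called 0, and 0 had an unadjusted p under 0.05, where edgeR called 18.3% of all genes tested, 9.76% as higher and 8.56% as lower. The median of the 20 was -0.27 beside 0.02 for all genes, and with total-count scaling it was 0.10 beside 0.43. mt-Rnr2 had 42324, 28092 and 32087 CPM in MYC livers and 35700 and 31638 in controls (0.02 ± 0.35, adjusted p = 0.983). mt-Cytb had 45464, 25334 and 25487 against 40003 and 36690, and mt-Co1 had 26985, 19644 and 15816 against 27490 and 24713, so that MYC replicate 1 lay near or above the controls and the other 2 livers below. The most negative mRNA was mt-Nd2, with 24019, 12253 and 12906 against 26443 and 23858 (-0.62 ± 0.42, adjusted p = 0.336, and -0.24 with total-count scaling). Only mt-Atp6 had lower values without overlap, at 12.4, 8.55 and 9.29 against 13.3 and 12.9, where 26.2% of all genes tested behaved so.

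mt-Tm had 6.61, 2.17 and 2.44 CPM in MYC livers and 4.33 and 3.98 in controls, a difference of -0.15 ± 0.56 (adjusted p = 0.893, and 0.20 with total-count scaling). mt-Tp had 43.6, 18.2 and 6.44 against 28.1 and 53.8 (-0.85 ± 0.70, adjusted p = 0.444). Beside these values, hepatocyte markers were lower in MYC livers (30856 to 52693 against 105284 to 107609 CPM), as were sinusoidal endothelium (244 to 407 against 553 to 575) and stellate cell genes (358 to 765 against 902 to 962). Neutrophil, erythroid, macrophage and T and NK cell genes were higher (787 to 1538 against 4.05 to 4.33, 267 to 1703 against 94.9 to 121, 672 to 909 against 279 to 282, and 9.81 to 20.1 against 4.33 to 5.85 CPM). Their part in the result was not tested.

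The change in MYC livers minus the change at 4 weeks of YAP, tested as an interaction, was positive in 18 of the 20 genes, with a median of 1.44 beside -0.07 for all genes, and 1 gene was called. That gene was mt-Tm, at 4.03 ± 0.85 (adjusted p = 0.0179). Over all genes tested, 7.48% were called, 3.15% as higher. A further 12 genes had an unadjusted p under 0.05, and DESeq2 called 10 of the 20, beside 2350 of the 17679 genes it tested. The edgeR count was 8 without 4-week replicate 1, beside 1868 of 17848 genes. Without either YAP control or either MYC control it fell, as did the calls over all genes, with 1 control left in that group. For the other 14 genes called at 4 weeks, a fall in 1 model and no call in the other was therefore not shown by edgeR with TMM scaling to be a difference between the models, for example mt-Nd2 at 1.86 (adjusted p = 0.0849). With total-count scaling, edgeR called 2 of these 14 beside mt-Tm: mt-Rnr1 at 1.10 (adjusted p = 0.0464, and 0.0687 with TMM) and mt-Nd1 at 1.29 (adjusted p = 0.0445, and 0.0830 with TMM). Over all 17964 genes that scaling called 1530, of which 270 were higher.

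Within the mitochondrial counts the genes did not keep fixed proportions. mt-Nd2 took 17.6% and 18.8% of mitochondrial counts in YAP controls, 12.2% and 8.39% at 2 weeks and 8.30%, 12.98% and 11.8% at 4 weeks, and 10.96%, 9.24% and 9.83% in MYC livers against 13.3% in each MYC control. These values do not depend on how libraries are scaled, and mt-Nd2 did not overlap its controls in any of the 3 comparisons. Per 100 counts of its neighbour mt-Nd1, from the same strand and also free of the chromosome 1 copy, mt-Nd2 had 178.5 and 174.6 in YAP controls, 122.7 and 88.0 at 2 weeks, 92.4, 129.5 and 116.8 at 4 weeks, 96.1, 88.6 and 92.4 in MYC livers and 128.6 and 123.8 in MYC controls. Unlike mt-Nd1, mt-Nd2 has a match on chromosome 2 (Gm13339, 96.7% identity over 510 bases). Per kilobase, mt-Nd2 was the most abundant of the mitochondrial genes in YAP controls (46095 CPM per kb, beside 38687 for mt-Cytb), and at 4 weeks it stood at 8276 beside 13754 for mt-Cytb and 10395 for mt-Rnr2.

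The minus-strand mRNA mt-Nd6 took a larger part after YAP. Its share of mitochondrial counts was 2.38% and 2.42% in YAP controls, 3.32% and 3.50% at 2 weeks and 3.16%, 3.97% and 4.26% at 4 weeks, without overlap. Plus-strand genes took larger parts without overlap as well. mt-Nd5 had 13.8% and 14.8% in YAP controls, 16.4% and 15.2% at 2 weeks and 15.6%, 15.8% and 16.5% at 4 weeks. mt-Rnr2 had 17.8% and 15.5%, 17.97% and 22.8%, and 20.2%, 21.6% and 19.2%. These parts are not independent, since they add up to the whole. In the MYC model mt-Nd6 overlapped, at 3.06%, 2.93% and 2.48% against 2.65% and 2.93%. Per 100 counts of mt-Nd5, its neighbour on the opposite strand, mt-Nd6 had 17.2 and 16.4 in YAP controls, 20.2 and 23.0 at 2 weeks, 20.3, 25.2 and 25.8 at 4 weeks, 20.5, 20.2 and 19.1 in MYC livers and 19.2 and 21.2 in MYC controls. The 2 genes overlap at their ends (13552 to 13565), and without the strand setting reads there cannot be assigned to a strand. The rRNA part of mitochondrial counts was 19.4% ± 1.59 in YAP controls (SD, n = 2), 23.2% ± 3.57 at 2 weeks (SD, n = 2), 23.2% ± 1.19 at 4 weeks (SD, n = 3), 24.7% ± 3.22 in MYC livers (SD, n = 3) and 20.7% ± 0.308 in MYC controls (SD, n = 2). These proportions were given no test.

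**Figure D4:**
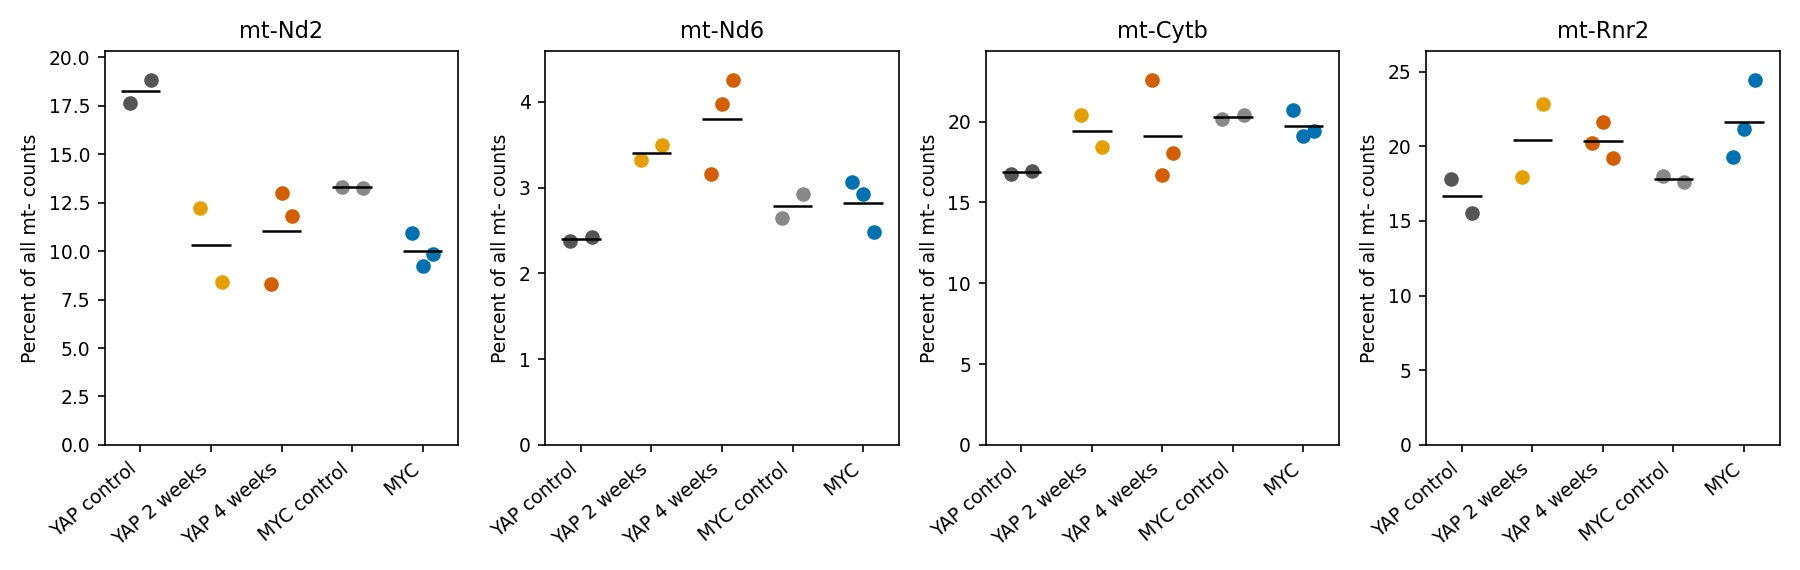
Percent of all mitochondrial counts in a library (vertical axes) taken by mt-Nd2, mt-Nd6, mt-Cytb and mt-Rnr2 in the 5 groups (horizontal axes); points are libraries and bars are group means. mt-Nd2 lies at 17.6% and 18.8% in YAP controls and at 12.98% or below in YAP-induced livers, and mt-Nd6 at 2.38% and 2.42% in YAP controls and at 3.16% or above in YAP-induced livers.

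The counts given to the chromosome 1 copies, which may hold mitochondrial reads, were also tested by edgeR. At 2 weeks 1 of the 7 copies was called, as lower, where 12.7% of all genes were: Gm28439, the copy of mt-Nd4 (-1.31 ± 0.34, adjusted p = 0.0154). The other 6 were at -1.44 to -0.13 and not called. At 4 weeks 6 of the 7 were called lower, where 15.7% of all genes were, for example Gm28439 (-2.00 ± 0.30, adjusted p = 0.00078), and Gm10925, the copy of mt-Atp6 (-1.95 ± 0.38, adjusted p = 0.00328). Gm28438, the copy of mt-Nd3, was not called (-1.36 ± 0.60, adjusted p = 0.102).

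Gm28438 differed between the models, and it is the copy that carries the single difference T3C from mt-Nd3 shown above. It had 30 and 30 counts in YAP controls, 38 and 48 at 2 weeks and 37, 10 and 12 at 4 weeks, and 807, 269 and 364 in MYC livers and 357 and 362 in MYC controls. The median was 2.69 CPM over the 7 YAP-model libraries and 28.2 CPM over the 5 MYC-model libraries, without overlap. The other 6 copies overlapped between the models, with medians that differed by at most 2.20 times. Within the MYC model Gm28438 did not differ between MYC livers and controls by the test (-0.03 ± 0.49, adjusted p = 0.988). The contrast is thus between the models, which differ in genotype, age, AAV and doxycycline schedule at once, and these cannot be told apart. mt-Nd3 itself had 5 to 29 counts in the YAP model and 15 to 38 in the MYC model.

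**Figure D5:**
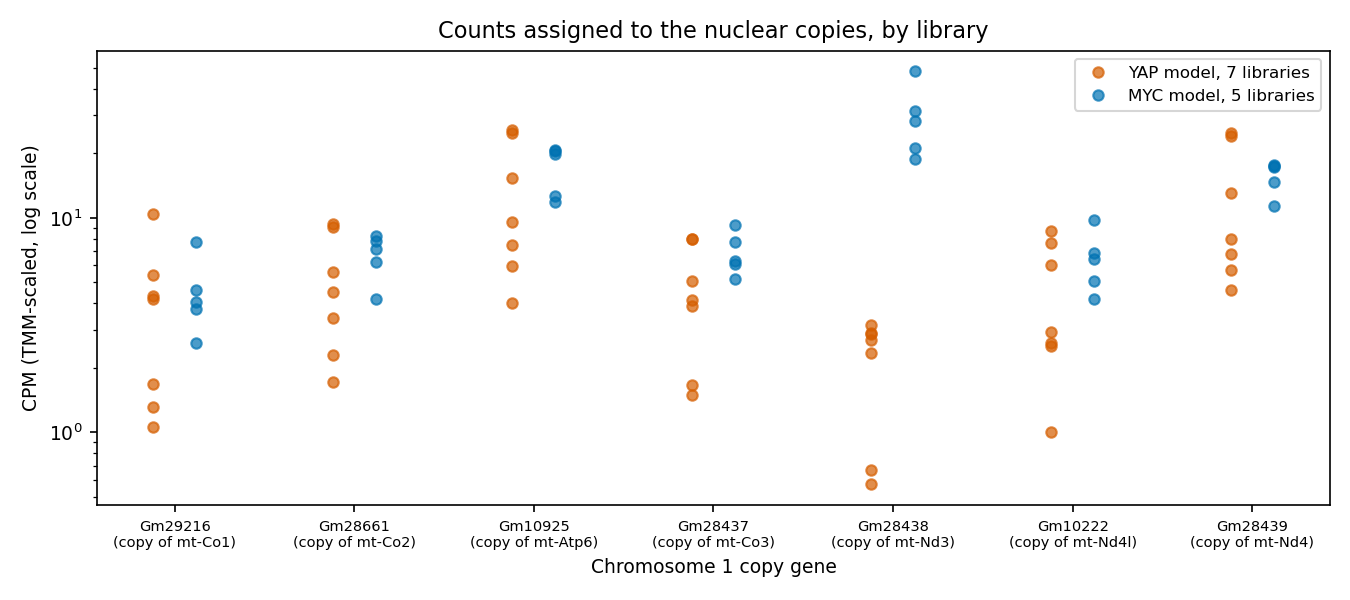
TMM-scaled CPM (vertical log axis) of the 7 chromosome 1 gene models that copy mitochondrial genes (horizontal axis) in 7 YAP-model and 5 MYC-model libraries; each point is a library. Gm28438 lies at 0.574 to 3.18 CPM in the YAP model and at 18.9 to 48.1 CPM in the MYC model, and the other copies overlap.

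The nuclear genes that serve the mitochondrial genome were read from the same edgeR fit. In the list of mitochondrial transcription genes, 3 of 11 fell at 2 weeks and 3 of 11 at 4 weeks, where 12.7% and 15.7% of all genes did, and 0 were called in the MYC model. With total-count scaling 1 fell at each time, beside 979 of all 17964 genes at 2 weeks and 897 at 4 weeks. Tfam, which packages and activates mitochondrial DNA, had 51.2 and 53.8 CPM in YAP controls and 28.3 to 36.6 at 4 weeks (-0.66 ± 0.16, adjusted p = 0.00919), but 0.07 with total-count scaling. Tefm, the elongation factor, fell by 1.14 and Mrpl12 by 1.17 at 4 weeks (adjusted p = 0.0249 and 0.000321). With total-count scaling Tefm lost its call (-0.39, adjusted p = 0.387) and Mrpl12 was still called (-0.43, adjusted p = 0.0364). Polrmt, the mitochondrial RNA polymerase, was at -0.79 at 2 weeks and -0.44 at 4 weeks, and Tfb2m at -0.45 and -0.56, none of them called.

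Among 36 genes of mitochondrial RNA processing and stability, 10 fell at 2 weeks and 16 at 4 weeks, where 12.7% and 15.7% of all genes did. In MYC livers 1 rose and 1 fell, below the 9.76% and 8.56% of all genes. With total-count scaling 2 rose and 4 fell at 2 weeks, 6 rose and 3 fell at 4 weeks, and 9 rose and 0 fell in the MYC model. Over all 17964 genes, that scaling called 5228 higher and 979 lower at 2 weeks. At 4 weeks it called 7863 higher and 897 lower, and in the MYC model 3277 higher and 743 lower. Lrpprc, whose protein protects mitochondrial mRNAs, had 186.8 and 188.9 CPM in YAP controls, 59.9 and 66.4 at 2 weeks and 47.6 to 68.99 at 4 weeks, and fell by 1.57 ± 0.20 and 1.63 ± 0.17 (adjusted p = 0.000349 and 0.000117). It was called at both times with total-count scaling as well (-1.04 and -0.88), and was not called in the MYC model (-0.35, adjusted p = 0.190). Slirp, its partner, was not called in any comparison with controls. Elac2, which cuts the 3′ end of tRNAs, fell by 0.97 at 4 weeks and Trmt10c, a part of mitochondrial RNase P, by 0.63 (adjusted p = 0.00645 and 0.0206). With total-count scaling neither was called (-0.24 and 0.09). Pnpt1, an RNA-degrading enzyme, fell by 0.93 at both times, and both calls were lost with total-count scaling (-0.39, adjusted p = 0.206, and -0.18, adjusted p = 0.478). Rexo2, which clears short RNA remnants, fell by 1.29 at 4 weeks and by 0.67 in MYC livers (adjusted p = 0.000214 and 0.0143). With total-count scaling the first was still called (-0.56) and the second was not (-0.26, adjusted p = 0.332).

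Of 18 genes that maintain mitochondrial DNA, 2 rose and 4 fell at 4 weeks, where 18.1% of all genes rose and 15.7% fell, and 1 rose in MYC livers. With total-count scaling 7 rose and 0 fell at 4 weeks, beside 7863 of all 17964 genes called higher and 897 lower. In MYC livers 3 rose with that scaling, beside 3277 of all genes. Slc25a36, a carrier of pyrimidine nucleotides, rose by 1.38 and 1.201 in these comparisons, and was called with either scaling. Top1mt, a topoisomerase, fell by 0.89 at 4 weeks, a call lost with total-count scaling (-0.14, adjusted p = 0.559). Polg, the DNA polymerase, was at -0.14 and the helicase gene Peo1 (Twnk) at -0.52, neither called. With total-count scaling Polg turned to 0.60 and was called higher (adjusted p = 0.0192), and Peo1 turned to 0.24 without a call. Among 15 regulators of mitochondrial biogenesis, 2 rose and 2 fell at 4 weeks, no more in either direction than the share over all genes (18.1% and 15.7%). With total-count scaling 6 rose and 0 fell, again beside 7863 of all 17964 genes called higher and 897 lower. Nrf1 rose by 0.74 at 4 weeks and by 0.91 in MYC livers (adjusted p = 0.0254 and 0.0170), and was called in both with total-count scaling. Pprc1 rose by 0.79 at 4 weeks (adjusted p = 0.00957), and was called with total-count scaling as well (1.54). Ppargc1b, a coactivator, fell by 1.51 at 4 weeks (adjusted p = 0.0157), a call lost with total-count scaling (-0.76, adjusted p = 0.0998). Prkaa2 fell by 1.17 at 4 weeks (adjusted p = 0.00576), a call also lost with that scaling (-0.44, adjusted p = 0.142). In MYC livers Prkaa2 fell by 1.56 (adjusted p = 0.00283), and was called with total-count scaling too (-1.14). Gabpa and Esrra were not called in any comparison with controls under either scaling. Ppargc1a, another coactivator, was not called with TMM scaling (0.67, 0.56 and 0.81 at 2 weeks, at 4 weeks and in MYC livers). With total-count scaling it was called higher in all 3 comparisons (1.16, 1.27 and 1.198, adjusted p = 0.0254, 0.00931 and 0.0245).

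The nuclear-encoded subunits of the respiratory chain moved in the same direction as the mitochondrial ones in the YAP model. Of 75 tested, 66 fell at 2 weeks and 74 at 4 weeks, where 12.7% and 15.7% of all genes did, with medians of -1.05 and -1.16. With total-count scaling 34 of the 75 fell at each time, beside 979 of all 17964 genes at 2 weeks and 897 at 4 weeks. In the MYC model 1 rose and 2 fell, and with total-count scaling 10 rose, beside 3277 of all genes. The difference between the MYC and 4-week YAP effects was called in 43 of the 75, all positive, where 3.15% of all genes were called so, and in 24 with total-count scaling, beside 270 of all genes. Complex II, which has no mitochondrial subunit, showed the same pattern at 4 weeks: all 4 of its genes fell, and Sdhd had 140 to 151 CPM in YAP controls and 57.2 to 58.2 at 4 weeks (-1.33 ± 0.16, adjusted p = 0.00019), while in the MYC model it rose by 0.55 (adjusted p = 0.0361). Sdha, in the same complex, fell by 1.49 at 4 weeks (adjusted p = 0.000343) and by 0.75 in the MYC model (adjusted p = 0.0233, but -0.34 and not called with total-count scaling). Atp5k of complex V had 145 to 173 CPM in YAP controls and 42.3 to 50.9 at 4 weeks (-1.80 ± 0.17, adjusted p = 5.88e-05), beside -2.13 for mt-Atp6 and -1.81 for mt-Atp8.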

How the data were processed

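Total liver RNA of 12 mice was sequenced from Nugen Ovation Mouse RNA-seq libraries, 1 library per mouse, per the labels' protocols. The files the authors deposited hold whole-number counts for each gene symbol, unnormalised. The submitters' processing notes name featureCounts 1.6.3, HISAT2 2.1.0, Trim Galore 0.4.1 and DESeq2 1.20.0, with the genome build GRCm38 (mm10). The annotation release, strand setting and handling of reads with several matches are not given in the sources used here, which bears on the genes copied on chromosome 1. The members and gene lists were chosen with earlier results of these data known.

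The test was that of edgeR 4.0.16 under R 4.3.3 (filterByExpr, TMM, robust quasi-likelihood F test, two-sided, 1 mean per group over all 12 libraries, 7 residual degrees of freedom, biological coefficient of variation 31.5%). Calls needed an adjusted p under 0.05 (Benjamini-Hochberg, over the 17964 genes kept). TMM factors ran from 0.742 to 1.35. The script was tested on simulated data. Every mitochondrial mRNA and rRNA was named, as were tRNAs with a mean of at least 10 CPM or a call and a set list of nuclear regulators. Of the called members of the nuclear lists with the smallest p, only some are given. Mitochondrial transcripts were compared with nuclear transcripts of GENCODE vM21 with blastn 2.17.0 (at least 90% identity over 60 bases). Alternatives were total-count scaling, scaling without mt- genes, DESeq2 1.42.0, no filter, only the groups compared, a replicate block and leaving out each library. Of the listed genes, 5 were not matched in the tables. These were the cell markers Tf and Ahsp, and Rn45s, n-R5s and CT010467.1 from a list linked to cytosolic rRNA.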

Additional observations from a re-analysis of the deposited data

Results flagged for a closer look

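The effect on mt-Tm, the methionine tRNA whose gene touches mt-Nd2, differed between the models: the log2 change in MYC livers minus that at 4 weeks of YAP was 4.03 ± 0.85 (edgeR, adjusted p = 0.0179), which is why it is given here. Its level was lower at 4 weeks in 3 of 3 livers than in both YAP controls, and MYC livers overlapped their controls. The value stayed between 3.34 and 4.31 under every alternative run, but its adjusted p passed 0.05 without either YAP control (0.0607 and 0.0530), without either MYC control (0.0783 and 0.0991) and with the replicate number as a block (0.0799). The counts behind it are small, 4 to 11 per library at 4 weeks and 31 to 111 in MYC livers.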

How the results depend on the processing

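For YAP at 2 weeks against controls, the 6 calls became 4 with total-count scaling, 11 with DESeq2, 9 without the filter, 8 with only the groups compared and 1 to 5 when a library was left out. For 4 weeks against 2 weeks they stayed at 0 with all livers kept, and were 2 without 4-week replicate 1, beside 501 of 17848 genes. For the difference between the MYC and 4-week YAP effects, the 1 call became 3 with total-count scaling, 10 with DESeq2, 6 without the filter and 2 with only the groups compared. Over all genes the main fit called 1344 of 17964. These alternatives called 1530 of 17964, 2350 of 17679, 1408 of 30910 and 1198 of 17644, in that order. The count was 8 without 4-week replicate 1, beside 1868 of 17848 genes, and fell without any 1 control, which leaves 1 liver in a group. For 4 weeks against controls the count stayed at 15 or slightly fewer with all livers kept, beside 3539 to 8760 calls over all genes. In the MYC model it was 0 with all livers kept, beside 1514 to 4081 calls over all genes. The causes were not tested.

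With the replicate number as a block, calls numbered 8 at 2 weeks, 13 at 4 weeks, 0 in the MYC model and 0 for the difference between effects. Over all 17964 genes that fit called 3827, 3539, 1514 and 308, in the same order. Libraries with the same number had correlations of -0.03 to 0.08 between their deviations from the group means. In a group of 2 the deviations mirror each other, so these values cannot show whether such libraries share more than a number.

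The mitochondrial share without the rRNAs was 16.3% in YAP controls, 9.58% at 2 weeks, 7.68% at 4 weeks, 13.5% in MYC livers and 12.6% in MYC controls. Without the 10 top nuclear genes in the total it was 21.7%, 14.1%, 11.1%, 19.4% and 17.8% in the same groups.

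Among the mitochondrial genes, signs turned only where no call was made; among the nuclear genes named, the called falls of Tfam and Trmt10c at 4 weeks turned to 0.07 and 0.09 with total-count scaling, without a call. In the MYC model, total-count scaling gave mt-Rnr1 0.18, mt-Nd1 0.20, mt-Tm 0.20, mt-Co1 0.062, mt-Co2 0.16, mt-Atp8 0.081, mt-Atp6 0.018, mt-Co3 0.0075, mt-Nd3 0.0087, mt-Nd4 0.12, mt-Nd5 0.19, mt-Nd6 0.18 and mt-Cytb 0.12. Leaving out a library there gave -0.16 to 0.15 for mt-Rnr2, -0.84 to 0.13 for mt-Tm, -0.83 to 0.061 for mt-Nd3 and -0.56 to 0.0093 for mt-Nd6, each lowest without MYC replicate 1. For 4 against 2 weeks it gave -1.02 to 0.25 for mt-Nd2 and -1.15 to 0.0072 for mt-Atp6, highest without 2-week replicate 1. For 4 weeks against controls, mt-Tp was 0.54 with total-count scaling and -0.80 to 0.12 when a library was left out, highest without 4-week replicate 1. Groups of 2 or 3 livers and tRNAs with few counts limit what these tests can show.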
